A study of Rattus norvegicus with 9 samples.

Results

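The constitutive proteasome genes on these arrays are the probes whose gene name starts with Psma, Psmb, Psmc, Psmd or Psme and a digit, apart from the interferon-inducible subunits Psmb8, Psmb9 and Psmb10 and the inducible activator genes Psme1 and Psme2. The rule found 40 gene names on 45 probes, out of 19044 gene names and 45598 probes on the array. Gene expression was measured in the amygdala, both sides of the brain together, of 9 female spontaneously hypertensive rats (SHR, an inbred strain whose blood pressure rises with age), 1 rat per array. All rats had both ovaries removed at 4 weeks of age, recovered for 1 week and then carried an Alzet minipump, a small osmotic pump under the skin, for 1 month until they were killed at 9 weeks. In the OV group (4 rats, replicates 1, 2, 3 and 5) the pump held only the carrier PEG. In the OV+E2 group (5 rats, replicates 1 to 5) it held 0.33 mg/ml estradiol in PEG and released 2 µg of estradiol per day. There was no group with intact ovaries and no group of another strain, so the comparison is of estradiol replacement against carrier in ovariectomized rats of this strain.

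The proteasome is the main protease of the cytosol and nucleus and degrades proteins tagged with ubiquitin. Its 20S core is a stack of rings, with alpha subunits forming the outer gate and beta subunits the inner chamber, and the beta subunits Psmb5, Psmb6 and Psmb7 carry the cleaving sites. A 19S cap binds the tagged protein, removes the ubiquitin, unfolds the chain with a ring of ATPases and feeds it into the core, while Psme3 and Psme4 are alternative activators. Most subunits are made in every cell type, and interferon replaces the cleaving subunits by inducible ones. Neurons use the proteasome to turn over synaptic proteins.

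The label holds for most but not all members. Psmc3ip was matched by its letters only, since it encodes a protein that interacts with PSMC3 and acts in meiotic recombination. Psma8 is the alpha subunit of the testis proteasome and Psmb11 the beta subunit of the thymus proteasome, so neither is constitutive. Psmd5, Psmd9 and Psmd10 are chaperones that help to assemble the 19S base and are not parts of the finished particle. RefSeq lists Psma3l as a synonym of Psma3, and in rat build rn4 the Psma3l probe (chr6:93111009-93111068) and the Psma3 probe (chr6:93112068-93112127) lie close together, so both can report 1 gene.

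Of the 45 probes 43 were well above background on all 9 arrays by the scanner software's own flag, and none was saturated on any array. The exceptions were a second Psma2 probe, which passed on 8 arrays, and a second Psmb11 probe, which passed on 0 and was the only member probe not tested. All 40 gene names therefore had a tested probe. The 5 names with a pair of probes were Psma2, Psma7, Psmb11, Psmc1 and Psmd11, and the brighter probe represents each of them unless both are given. Each probe is a 60-base oligonucleotide that reports only the stretch it covers. The leading probe of a role group, the one of smallest unadjusted p, is shown for 4 of the 5 groups as the letters on the array, because the values of these probes are given rat by rat further on. The leading alpha probe, Psma3l, had a stop codon in every forward reading frame and is left out. The exon and the coding or non-coding part that a probe covers were not determined here.
Psmb7 (build rn4, chr3:18413231-18433105): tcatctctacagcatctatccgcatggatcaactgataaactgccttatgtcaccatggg
Psmc4 (build rn4, chr1:83152227-83152286): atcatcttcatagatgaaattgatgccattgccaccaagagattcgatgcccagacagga
Psmd11 (build rn4, chr10:68708038-68708474): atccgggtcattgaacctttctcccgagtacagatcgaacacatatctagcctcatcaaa
Psme3 (build rn4, chr10:90350862-90350921): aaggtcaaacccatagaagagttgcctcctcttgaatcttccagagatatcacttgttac
The genomic span of the Psmb7 and Psmd11 probes is longer than 60 bases, so these probes cross at least 1 intron, while those of Psmc4 and Psme3 span exactly 60 bases.

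Proteasome genes are known to share promoter elements, among them the antioxidant response element read by Nfe2l1, which raises all subunits together when proteasome activity drops, the CCAAT box and the ETS core. Promoters of 300 bases, from 250 before to 50 after the annotated start, were taken from RefSeq (build GRCr8) and matched 34 of the 40 names. Psma3l, Psma7, Psmb11, Psmd6, Psmd12 and Psmd14 were not matched. Each motif was searched by its letters on both strands and separately, so matches of different motifs may overlap. The antioxidant core TGACNNNGC was found in 8 of the 34 promoters (23.5%), against 14.1% of the promoters of all tested genes and 12.1% of all 33469 promoters. CCAAT was found in 18 members (52.9%, against 37% and 37.5%), and the ETS core CGGAAG in 21 (61.8%, against 26.2% and 16.6%). The palindromic consensus of the estrogen response element was in 0 of the 34 and in 9 of all promoters (0.0269%). These are matches of letters, not sites shown to be bound. The 4 members of smallest p with an antioxidant core are printed as windows of 60 bases that lie before the start and hold the match, in the direction of the gene, with the match in capitals, because they include 2 of the genes of the cleaving sites.
Psmb6 (GRCr8, chr10:55737828-55737887, plus strand): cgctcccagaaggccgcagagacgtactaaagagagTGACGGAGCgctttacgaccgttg
Psma3 (GRCr8, chr6:95219689-95219748, plus strand): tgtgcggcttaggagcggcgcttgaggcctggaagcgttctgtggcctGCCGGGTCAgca
Psmb5 (GRCr8, chr15:32047406-32047465, minus strand): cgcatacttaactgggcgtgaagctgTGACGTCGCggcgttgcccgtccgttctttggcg
Psme4 (GRCr8, chr14:108706562-108706621, plus strand): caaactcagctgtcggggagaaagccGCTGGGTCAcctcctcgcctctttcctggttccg
The matches begin at -24 (Psmb6), -12 (Psma3), -60 (Psmb5) and -55 (Psme4), counted from the start. In Psma3 and Psme4 the match reads on the opposite strand. The windows of Psmb7 and Psme3, chosen after their values were seen, hold no antioxidant core but an ETS core, in capitals.
Psmb7 (GRCr8, chr3:42827471-42827530, minus strand): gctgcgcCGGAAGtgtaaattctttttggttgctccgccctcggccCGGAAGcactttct
Psme3 (GRCr8, chr10:86757873-86757932, plus strand): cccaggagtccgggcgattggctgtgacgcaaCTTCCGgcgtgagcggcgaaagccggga
Psmb7 has 2 such cores within this window, on the strand of the gene, and Psme3 has 1 on the opposite strand.

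Values are log2 of the scanner's processed signal minus the 75th percentile of the same array, so that 0 is that percentile, and differences are OV+E2 minus OV on this log2 scale. In all, 30208 probes and 14995 named genes were tested with limma, and none passed an adjusted p of 0.05, the smallest being 0.155. OV replicate 3 stood apart before any comparison. Its 75th percentile was 130 units of signal against 557 to 738 on the other 8 arrays, it had 24216 probes well above background against 29046 to 31381, and its mean correlation with the other arrays was 0.947 against 0.980 to 0.983. Results are therefore given with and without it. The arrays lay on 2 slides, with OV replicates 1, 2 and 3 and OV+E2 replicates 1 and 2 on the first. The second held OV replicate 5 and OV+E2 replicates 3, 4 and 5, so every difference within it rests on 1 carrier rat. All 8 markers of amygdala neuron types, such as Prkcd, Crh and Penk, were above background on all 9 arrays. Of the 3 thalamus markers 3 were above background on all arrays too, and of the 3 choroid plexus markers, 2. The choroid plexus markers summed to a level of 3.45 to 9.55 in OV and 7.98 to 8.89 in OV+E2, a wide range among the carrier rats.

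The constitutive proteasome genes differed little between estradiol-treated and carrier-treated rats. None of the 40 passed an adjusted p of 0.05, the smallest adjusted p by limma being 0.450 for Psmb7. Psmb7 alone had an unadjusted p under 0.05, which is 2.5% of the members, against a background of 9.51% of all tested genes (3.71% in the same direction). The count without OV replicate 3 was 2, Psmb7 and Psma3l, or 5% of the members against a background of 13.6%. In the authors' value table it was 1, Psma3l, or 2.5% against 18.6%. All 3 shares lie below the background share, but they rest on mostly the same arrays and are not separate observations. Under the other settings, given at the end without a background share, the count ran from 0 to 4. As these are bulk tissue samples, fewer cells of a type and less RNA per cell cannot be told apart in any of these values.

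In direction, 26 members were higher and 14 lower in OV+E2 (65% higher, against 54.5% of all tested genes). The median difference of the 40 was 0.06, against 0.03 for all tested genes, and the members ranged from -0.39 (Psmb6) to 0.52 (Psmd5). Without OV replicate 3 the split was 21 higher to 19 lower (52.5%, against 56.5%), the median was 0.01 against 0.02, and the range narrowed to -0.25 (Psmd7) to 0.24 (Psmb7). Other scalings moved the split with OV replicate 3 included. Quantile normalization gave 29 of 40 higher (72.5%, against 60.4% of all tested genes), scaling to the array median gave 31 (77.5%, against 70.3%) and normexp background correction gave 30 (75%, against 47.2%). The median of all genes was 0.06, 0.13 and -0.02 under these scalings, and that of the members 0.11, 0.17 and 0.14. Within the first slide the median of the members was 0.08 (0.01 without OV replicate 3), and within the second it was 0.08. Leaving out Psmc3ip, Psma8 and Psmb11 gave a median of 0.07 over 37 genes, and 0.01 without OV replicate 3.

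**Figure D1:**
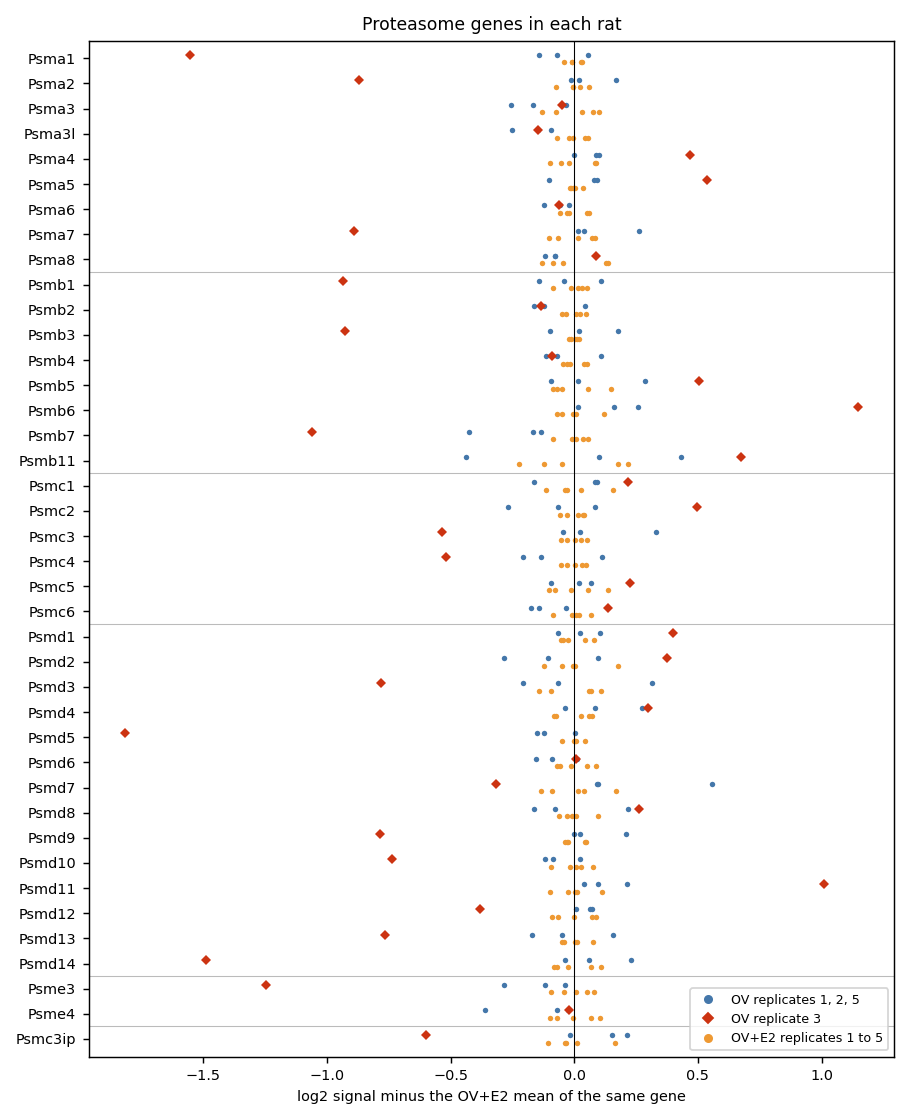
Log2 signal of each of the 40 proteasome genes in each rat, drawn relative to the gene's mean over the 5 OV+E2 rats (vertical line at 0), with genes ordered by role and thin lines between roles. The OV+E2 rats (orange) and OV replicates 1, 2 and 5 (blue) lie close together for most genes, while OV replicate 3 (red diamonds) is far to the left for Psmd5, Psma1 and Psmd14 and far to the right for Psmb6 and Psmd11.

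How small a difference the arrays allowed can be read from the 95% intervals. With all 9 arrays the interval lay wholly between -0.5 and 0.5, that is within a 1.41-fold difference either way, for 24 of the 40 members (60%), against 47.6% of all tested genes. Leaving out OV replicate 3, it did so for 39 of 40 (97.5%, against 76.4%), the exception being Psmd7, a 19S lid subunit, with an interval of -0.54 to 0.04. In the authors' value table, with all 9 rats, it did so for 40 of 40 (against 78.5%). The spread within groups was somewhat smaller than that of all tested genes. The median residual SD, the spread left within the groups, was 0.209 for the members against 0.227 for all tested genes. Without OV replicate 3 it was 0.093 against 0.123. The background of all tested genes was not matched to the members in signal level. Whether level accounts for the smaller spread or the larger interval shares was not tested. Neither is therefore shown to be a trait of the members. The median SD of a member was 0.065 within OV+E2 and 0.304 within OV, which became 0.121 without replicate 3. Among the 5 OV+E2 rats 32 of the 40 members had an SD under 0.1, a count not set against all tested genes.

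**Figure D2:**
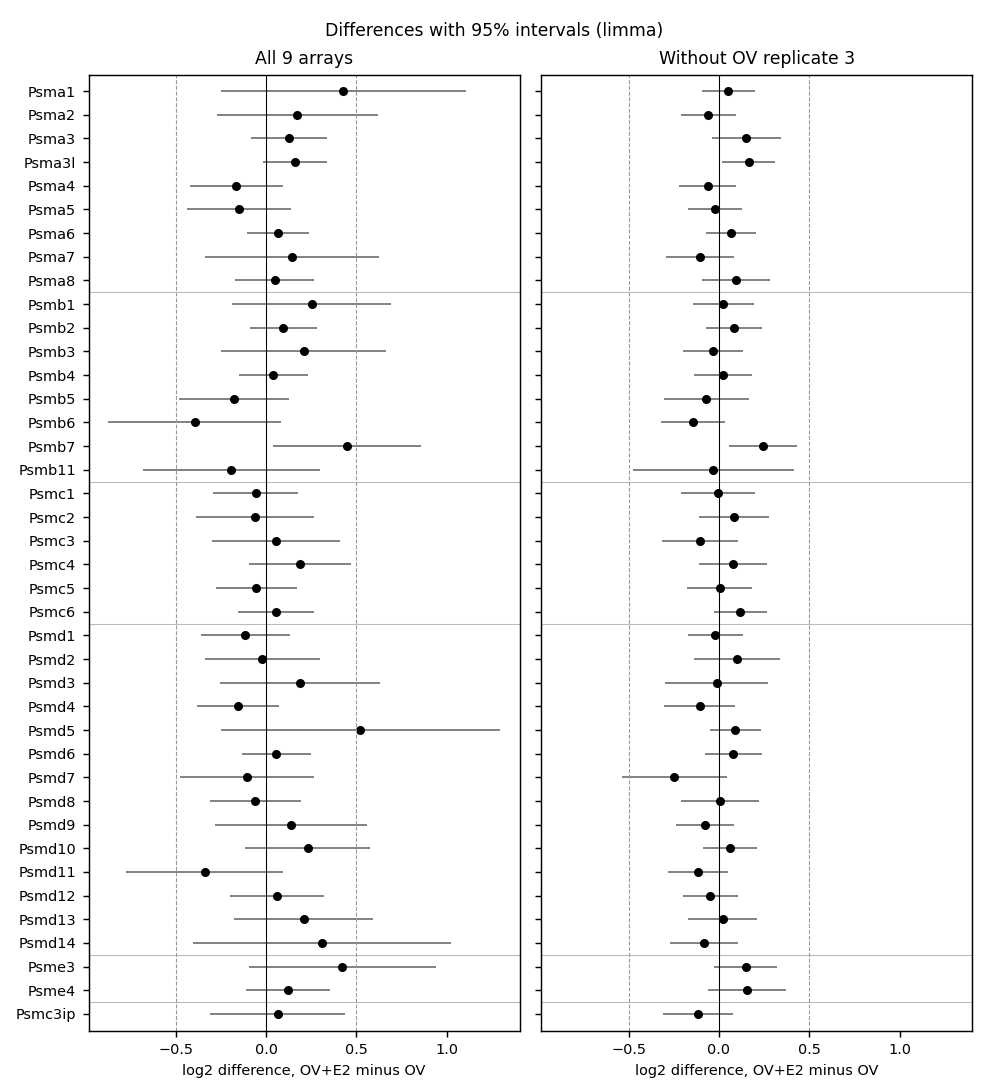
Log2 difference (OV+E2 minus OV) of each proteasome gene with its 95% interval from limma, with all 9 arrays on the left and without OV replicate 3 on the right. Dashed lines mark -0.5 and 0.5: 24 of 40 intervals lie within them on the left and 39 of 40 on the right.

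Among the 9 alpha-ring genes, which form the gate of the core, 7 were higher and 2 lower in OV+E2, with a median of 0.13 that became 0.05 without OV replicate 3. Psma3l had levels of 2.93, 2.88, 2.88 and 2.77 in OV replicates 1, 2, 3 and 5 and of 3.00, 3.07, 3.08, 2.96 and 3.02 in OV+E2 replicates 1 to 5. All 5 treated rats were above all 4 carrier rats, and OV replicate 3 was no exception among the carrier rats. The difference was 0.16 (SE 0.08, unadjusted p = 0.075, adjusted p = 0.503 by limma), and 0.16 without OV replicate 3. It was 0.14 within the first slide and 0.25 within the second. The Psma3 probe, which can report the same gene, differed by 0.13 (SE 0.09), with overlapping groups.

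Psma4, another alpha subunit, was at 3.96, 3.97, 4.34 and 3.87 in the OV rats and at 3.96, 3.96, 3.85, 3.82 and 3.78 in the OV+E2 rats. OV replicate 3 was the highest of all, and the other 3 carrier rats overlapped the treated rats. The difference was -0.16 (SE 0.11, adjusted p = 0.530) and -0.06 without OV replicate 3. Psma7, the alpha subunit with a pair of probes that differed in sign, had its brighter probe (chr3:169102472-169103179) at 4.04, 3.82, 2.89 and 3.79 in OV and at 3.79, 3.85, 3.86, 3.68 and 3.71 in OV+E2. Its dimmer probe (chr3:169100977-169101036) was at -1.30, -0.97, 0.18 and -0.59 in OV and at -0.80, -0.97, -0.72, -0.53 and -0.47 in OV+E2. On OV replicate 3 the brighter probe was the lowest of the 9 arrays and the dimmer probe the highest. The differences were 0.14 (SE 0.21) and -0.03 (SE 0.27), and both changed sign without that array, to -0.11 and 0.26. Psma1, Psma2, Psma5, Psma6 and Psma8 differed by 0.43, 0.17, -0.15, 0.07 and 0.05. Without OV replicate 3 these 5 lay between -0.06 and 0.09.

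Of the 8 beta-ring genes 5 were higher and 3 lower, with a median of 0.07 (0.00 without OV replicate 3). Psmb7, the subunit with the trypsin-like cleaving site, had levels of 2.72, 2.98, 2.09 and 3.01 in OV replicates 1, 2, 3 and 5 and of 3.14, 3.15, 3.20, 3.06 and 3.18 in the OV+E2 rats. Every treated rat was above every carrier rat, and OV replicate 3 was by far the lowest. The difference was 0.45, or 1.36-fold (SE 0.18, unadjusted p = 0.0358, adjusted p = 0.450). It was 0.24 without OV replicate 3 (adjusted p = 0.246) and 0.18 in the authors' value table. With slide as a block it was 0.39, within the first slide 0.55 (0.30 without OV replicate 3) and within the second 0.14.

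Psmb6, the subunit with the caspase-like site, was at 4.05, 4.15, 5.04 and 3.90 in the OV rats and at 3.89, 4.01, 3.84, 3.90 and 3.82 in the OV+E2 rats. OV replicate 3 was far above every other rat, and the other 3 carrier rats overlapped the treated rats. The difference of -0.39 (SE 0.21, adjusted p = 0.512) was -0.14 without OV replicate 3. Psmb5, the subunit with the chymotrypsin-like site, differed by -0.18 (SE 0.13) and by -0.07 without that array. The beta subunits Psmb1, Psmb2, Psmb3 and Psmb4, which carry no cleaving site, differed by 0.25, 0.09, 0.21 and 0.04, and by 0.02, 0.08, -0.03 and 0.02 without OV replicate 3. Psmb11 of the thymus proteasome differed by -0.19 (SE 0.22). Of all genes 7.27% had groups that did not overlap. Among the members this held for Psmb7 and Psma3l, 2 of 40 or 5%, and for the same number without OV replicate 3, where the background was 11.3%.

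The 6 ATPases of the 19S base, which unfold the substrate, were split 3 higher and 3 lower with a median of 0.00 (0.04 without OV replicate 3). Psmc4 had the smallest p of them. It was at 1.77, 1.45, 1.14 and 1.52 in OV and at 1.70, 1.63, 1.69, 1.60 and 1.66 in OV+E2, and the groups overlapped because OV replicate 1 was the highest of the 9. Its difference was 0.19 (SE 0.12, adjusted p = 0.525), and 0.08 without OV replicate 3. The brighter Psmc1 probe (chr6:124393284-124393343) was at 5.76, 5.75, 5.88 and 5.50 in OV and at 5.69, 5.82, 5.63, 5.63 and 5.55 in OV+E2, and the other (chr6:124393071-124393130) at 3.55, 3.47, 3.24 and 3.37 and at 3.46, 3.50, 3.42, 3.36 and 3.37. Both probes gave overlapping groups. Their differences of -0.06 and 0.01 were smaller than their SEs of 0.10 and 0.09, and the sign of the brighter one turned under quantile, median and normexp processing, in the authors' table and with slide as a block. Psmc2, Psmc3, Psmc5 and Psmc6 differed by -0.06, 0.06, -0.05 and 0.05, with SEs of 0.09 to 0.16.

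Among the 14 other genes of the 19S cap and its assembly, 8 were higher and 6 lower, with a median of 0.06 (-0.02 without OV replicate 3). Psmd11, a lid subunit that holds the cap to the core, had its brighter probe at 0.88, 0.76, 1.68 and 0.71 in OV and at 0.57, 0.67, 0.78, 0.65 and 0.68 in OV+E2. OV replicate 3 lay far above all others, and the other carrier rats overlapped the treated rats. The difference was -0.34 (SE 0.19, adjusted p = 0.514), and -0.12 without that array. A second Psmd11 probe differed by -0.16 (SE 0.17).

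Psmd4, a receptor for ubiquitin chains, was at 4.05, 3.86, 4.08 and 3.74 in OV and at 3.84, 3.85, 3.81, 3.70 and 3.70 in OV+E2. Here OV replicate 1 was nearly as high as OV replicate 3, and the groups overlapped. Its difference was -0.15 (SE 0.10, adjusted p = 0.522), and -0.11 without OV replicate 3. Psmd5, the assembly chaperone, was at -0.37, -0.50, -2.19 and -0.53 in OV and at -0.33, -0.42, -0.37, -0.38 and -0.37 in OV+E2. OV replicate 3 was more than 1 log2 unit below every other rat, and the remaining 8 lay close together. The difference of 0.52 (SE 0.34, adjusted p = 0.522) shrank to 0.09 without it. The other assembly chaperones Psmd9 and Psmd10 differed by 0.14 and 0.23, and by -0.08 and 0.06 without that array. The scaffold subunits of the base, Psmd1 and Psmd2, differed by -0.11 and -0.02. Psmd14, the enzyme that removes ubiquitin chains, differed by 0.31 (SE 0.32), and by -0.08 without OV replicate 3. The other lid subunits Psmd3, Psmd6, Psmd7, Psmd8, Psmd12 and Psmd13 lay between -0.11 (Psmd7) and 0.21 (Psmd13).

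Both activator genes were higher in OV+E2, with a median of 0.27 (0.15 without OV replicate 3). Psme3, which encodes the nuclear activator PA28 gamma, was at 0.32, 0.56, -0.65 and 0.48 in OV and at 0.60, 0.50, 0.65, 0.68 and 0.55 in OV+E2. OV replicate 3 was far below the rest, and the other 8 rats overlapped. The difference was 0.42 (SE 0.23, adjusted p = 0.513), and 0.15 without that array. Psme4, which encodes PA200, differed by 0.12 (SE 0.10), and by 0.15 without it. Psmc3ip, which is not a subunit, differed by 0.06 (SE 0.17).

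Many of these values rest on 1 rat. On OV replicate 3 a total of 15 members were over 0.5 below, and 5 over 0.5 above, the mean of the other 8 arrays. It was the lowest of the 9 arrays for 18 members (45%, against 36.6% of all tested genes) and the highest for 14 (35%, against 37.3%). The median absolute deviation of a member was 0.508 on this array and between 0.0468 and 0.144 on each of the other 8. The counts beyond 0.5 and these medians were not set against all tested genes, so they are no trait of the members. Deviations of both signs occurred within the same part of the particle. In the alpha ring they ran from -1.54 (Psma1) to 0.53 (Psma5), in the beta ring from -0.97 (Psmb7) to 1.09 (Psmb6), and in the non-ATPase 19S group from -1.78 (Psmd5) to 0.97 (Psmd11). Across the 40 members the deviation on OV replicate 3 and the group difference correlated at -0.909, which is a description, since the array enters both. In the authors' value table the column of the same rat deviated by a median of 0.0750, and its members lay between -0.27 and 0.38 of the mean of the other columns. How the authors made that column was not given. Whether the deviations in the scanner file come from this rat's RNA or from its array was not tested.

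**Figure D3:**
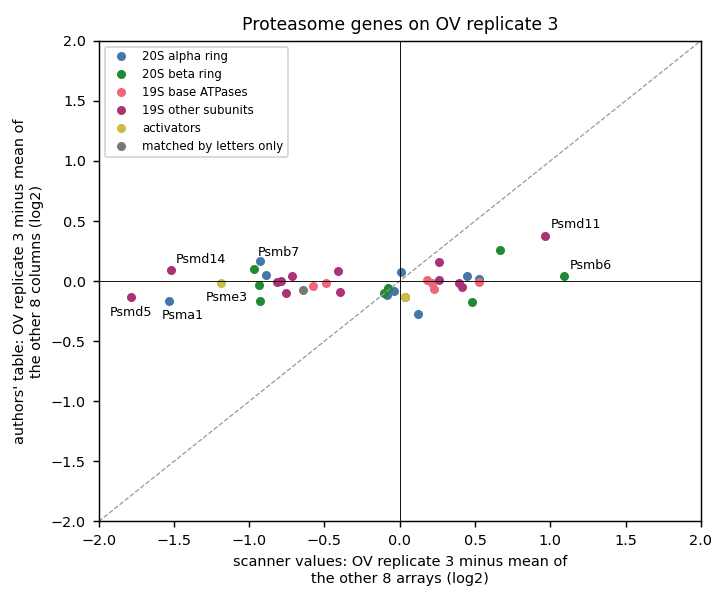
Deviation of OV replicate 3 from the mean of the other 8 rats for each of the 40 proteasome genes, in the scanner values (horizontal axis) and in the authors' value table (vertical axis), both in log2 units and coloured by role. The points spread from -1.78 to 1.09 horizontally and only from -0.27 to 0.38 vertically, away from the dashed line of equal deviation.

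On the 8 arrays other than OV replicate 3 the members' levels were correlated from rat to rat. With group means removed, the median correlation over pairs of members was 0.506 across 8 arrays, and 75.5% of pairs were above 0, against 0.024 and 51.7% over all pairs of tested genes. With all 9 arrays it was 0.125, against 0.004. These pairs share their arrays and scaling, so the values are descriptions. The members' median, centred by gene, ran over the 8 arrays from -0.07 (OV replicate 5) to 0.10 (OV replicate 1), both carrier rats, and the 5 treated rats lay between -0.04 and 0.04. The named genes outside the family whose level followed that median most closely across all 9 arrays were Acot9 (r = 0.970), Ndufaf3 (0.961), Cdk14 (0.957), Tcta (0.950) and Eif3c (0.943), out of 14943. Without OV replicate 3 they were at 0.832, 0.856, 0.959, 0.965 and 0.937. They are the highest of many correlations over few arrays, so their size is no evidence of a shared function. Acot9 encodes a mitochondrial thioesterase, Ndufaf3 an assembly factor of respiratory complex I, and Eif3c a subunit of a translation initiation factor. Across 8 arrays the closest were Snap47 (0.984), Dhps (0.981), Vps26b (0.978), Washc3 (0.977) and Vps33a (0.974). Over all 9 arrays these 5 were at 0.847, 0.856, 0.925, 0.746 and 0.157, so the value of Vps33a in particular rests on leaving out OV replicate 3.

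Of the inducible counterparts, which replace the cleaving subunits in the immunoproteasome, Psmb8 and Psmb9 were lower in OV+E2 with and without OV replicate 3. Psmb10 was lower only with that array included. With all 9 arrays all 5 immunoproteasome and activator genes were lower, with a median of -0.30 (-0.12 without OV replicate 3). By limma 2 of them had an unadjusted p under 0.05 and 0 passed after adjustment. The background at that unadjusted threshold was 5.8% of all genes in this direction. Psmb9 was at -0.23, -0.08, -0.03 and -0.19 in OV replicates 1, 2, 3 and 5 and at -0.51, -0.54, -0.68, -0.67 and -0.84 in OV+E2. All treated rats were below all carrier rats, with a difference of -0.51 (SE 0.10, adjusted p = 0.251 by limma) that was -0.48 without OV replicate 3. Psmb8 differed by -0.47 (-0.25 without that array), with -0.15 for its second probe. Psmb10 differed by -0.30, which became 0.01 without it. Psme1 and Psme2 differed by -0.20 and -0.19, and by -0.08 and -0.12 without OV replicate 3.

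Whether an inducible subunit and the constitutive one it replaces differed in their response was compared within each rat, as the log2 ratio of the 2 signals. Only changes in the ratio are used, since 2 probes do not give levels on 1 scale. The ratio of Psmb8 to Psmb5 was -4.02, -3.68, -3.36 and -3.69 in OV replicates 1, 2, 3 and 5 and -4.03, -4.01, -3.91, -3.94 and -4.01 in OV+E2. It overlapped through OV replicate 1, while the other carrier rats were higher. The mean went from -3.69 ± 0.27 (SD, n = 4) to -3.98 ± 0.05 (SD, n = 5), a difference of -0.29, with p = 0.0476 in an exact two-sided permutation test over 126 arrangements and 0.0714 adjusted over the 3 pairs. It was -0.18 without OV replicate 3 (exact p = 0.0893), and -0.13 with both Psmb8 probes averaged (adjusted p = 0.429).

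The ratio of Psmb9 to Psmb6 was -4.28, -4.23, -5.07 and -4.10 in OV and -4.40, -4.55, -4.52, -4.57 and -4.66 in OV+E2. OV replicate 3 was the lowest of all 9, and the other 3 carrier rats were above every treated rat. The difference was -0.12 (exact permutation p = 0.603). Without OV replicate 3 it was -0.34, with an exact p of 0.0179, the smallest that 56 arrangements can give, and 0.0536 adjusted over the 3 pairs. In the authors' value table, with all 9 rats, it was -0.33 (exact permutation p = 0.00794, adjusted over 3, 0.0238). That p is the smallest that 126 arrangements can give. Without the column of OV replicate 3 the difference was -0.34 (adjusted 0.0536), which repeats the scanner value without that array (-0.337 in both). Neither value is separate evidence. The other columns closely repeat the scanner values, and the column of OV replicate 3 differs from its scanner file. With all 9 rats the other ratios in the authors' table were -0.20 for Psmb8 over Psmb5 (adjusted exact permutation p = 0.0714) and -0.16 for Psmb10 over Psmb7 (adjusted 0.183).

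For Psmb10 over Psmb7 the ratio was 0.63, 0.36, 2.46 and 0.20 in OV and 0.19, 0.23, 0.02, 0.28 and 0.11 in OV+E2. OV replicate 3 was far above the rest, and OV replicate 5 lay among the treated rats. The difference was -0.75 (exact permutation p = 0.0238, adjusted over 3, 0.0714), and -0.23 without OV replicate 3 (exact p = 0.0893). With rats exchanged only within slides none of the 3 ratios had an exact p below 0.125, over 40 arrangements. Within the first and second slide the differences were -0.34 and -0.26 for Psmb8 over Psmb5, 0.05 and -0.49 for Psmb9 over Psmb6, and -0.94 and -0.06 for Psmb10 over Psmb7. On the scanner values of all 9 arrays scaled to the 75th percentile no ratio passed after adjustment, whereas with quantile normalization Psmb8 over Psmb5 (-0.34) and Psmb10 over Psmb7 (-0.72) both had an adjusted exact permutation p of 0.0476. Each difference depended on OV replicate 3 in size.

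**Figure D4:**
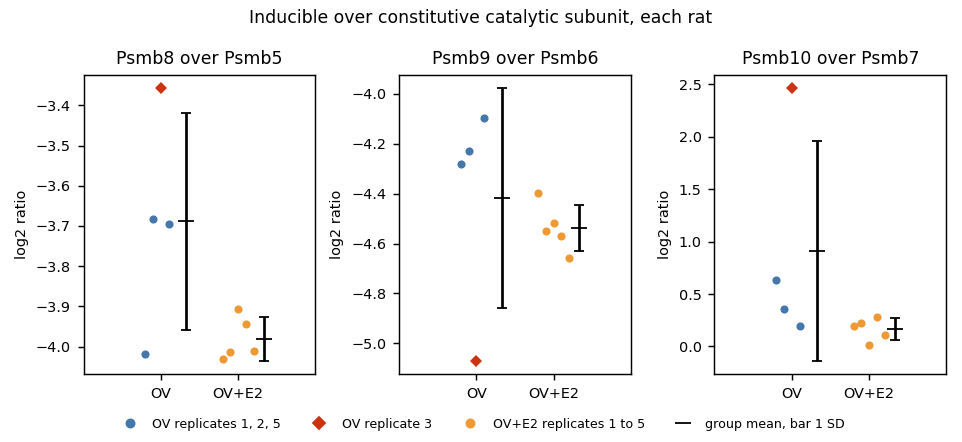
Log2 ratio of each inducible cleaving subunit to the constitutive subunit it replaces, for each rat, with the group mean and SD beside the points. The vertical axes differ between panels and do not start at 0. OV replicate 3 (red diamond) is the highest OV rat for Psmb8 over Psmb5 and for Psmb10 over Psmb7 and the lowest of all rats for Psmb9 over Psmb6.

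Markers of other cells were measured on the same arrays, and none of them passed an adjusted p of 0.05 by limma, the smallest being 0.251 for Itgam of the microglia. Of the 7 microglia markers 4 were lower and 3 of these had an unadjusted p under 0.05 (median -0.25), against a background of 5.8% of all genes in this direction. Leaving out OV replicate 3 gave 2 at that p, Aif1 and Itgam, against a background of 13.6% in either direction, and a median of -0.25. The summed level of the 7 was 5.00 to 5.53 in OV and 4.70 to 4.91 in OV+E2. Of the 6 blood markers 5 were lower, 4 of them at an unadjusted limma p under 0.05 (median -0.33). Without OV replicate 3 the count at that p was 5, where the background in either direction was 13.6%. Only 3 of the 6 were above background on all 9 arrays. Their summed level was 7.23 to 7.33 in OV and 6.64 to 7.13 in OV+E2. This sum is mostly Hba-a1 (mean 7.22 in OV and 6.89 in OV+E2), since Hbb was at 1.79 and 1.89. Hba-a1 differed by -0.33, and by -0.13 in the authors' value table. Median differences were -0.14 for 5 endothelial, -0.34 for 5 oligodendrocyte, -0.01 for 5 astrocyte, 0.23 for 6 neuron, 0.30 for 3 glutamatergic and 0.13 for 3 GABAergic markers. Without OV replicate 3 these medians were, in the same order, -0.09, -0.28, -0.18, 0.12, 0.24 and 0.06. The medians were 0.90 for 3 choroid plexus, 0.15 for 3 thalamus and 0.03 for 2 cerebellum markers, and 1.35, 0.30 and -0.09 without OV replicate 3. The choroid plexus gene Ttr was at 8.41, 3.42, 9.54 and 8.25 in OV and between 7.98 and 8.88 in OV+E2, so OV replicate 2 was far below the rest. OV+E2 replicates 1 and 2 were the highest rats for some genes of the thalamus and amygdala lists, with Tcf7l2 at 1.23 and 1.98 against 0.35 to 0.59 in the other treated rats and 0.47 to 1.21 in OV, and Prkcd at 2.42 and 3.59 against 0.99 to 1.08 and 0.83 to 1.13. Both are on the first slide, so the differences within the second slide hold neither of them. The part of cell makeup in the ratios was not tested.

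In the machinery around the proteasome 0 genes of the 3 following lists had an adjusted or an unadjusted limma p under 0.05 with all 9 arrays. Without OV replicate 3 an unadjusted p under 0.05 was reached by Nfe2l1 and Maff of the second list and Ubqln1 of the third, and by none after adjustment (smallest adjusted p of these 0.168, for Maff). These are 3 of the 26 tested genes, or 11.5%, against a background of 13.6%. Of the 8 tested assembly factors, 3 of which are members, 6 were higher and 2 lower (median 0.10, and -0.02 without OV replicate 3). The core chaperones Psmg1, Psmg2, Psmg3 and Psmg4 differed by -0.13, 0.20, 0.04 and -0.07, and Pomp, which guides beta-ring assembly, by 0.06. Without OV replicate 3 they differed, in the same order, by -0.08, -0.07, -0.11, 0.05 and 0.03. Of the 7 genes for the transcription of proteasome genes and its control 4 were higher (median 0.15, and 0.11 without OV replicate 3). Nfe2l1, the factor that drives proteasome genes, differed by 0.15 (SE 0.11; 0.22 without that array), and Maff, 1 of its small Maf partners, by 0.37 (SE 0.17, adjusted p = 0.492; 0.53 without it). Ngly1, which trims sugars from the Nfe2l1 protein, differed by 0.33, and Ddi2, which cleaves it, by -0.20, with 0.07 and 0.12 without OV replicate 3.

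Of the 11 tested proteasome-bound proteins 8 were higher and 3 lower (median 0.09, and 0.06 without that array). Among them Usp14, a deubiquitinase of the cap, differed by 0.26 (SE 0.15), the ubiquitin receptor Adrm1 by 0.15 (SE 0.09), and the shuttle factor Rad23b by 0.21 (SE 0.14). Without OV replicate 3 these genes differed by 0.09, 0.13 and 0.06. No tested probe bears the name Paaf1, Ube3c or Ecpas.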

How the data were processed

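The scanner files are of Agilent 1-colour Cy3 arrays, and the values used are the processed signal per spot, a background-subtracted intensity in the authors' deposited files. Feature Extraction 9.1 stands in the submitters' processing notes, whereas the file headers give version 10.7.3.1, protocol GE1_107_Sep09 and genome build rn4. The authors' deposited value table, taken as intensities and put on the log2 scale here, served as an alternative. The authors' scaling of it is unstated in the sources used here. Its columns are labelled with the same samples. The column of OV replicate 3 did not follow its scanner file. The median absolute deviation of a member was 0.0750 in that column and 0.508 in the scanner values. Whether that column comes from the same scan was not tested. Without OV replicate 3 the member differences of the authors' table were close to those of the scanner values, with a median of 0.00554 against 0.00524. The number of arrays limits the precision.

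Control spots and spots marked as outliers were left out and spots of a probe averaged. Log2 signals were centred on each array's 75th percentile. Probes had to be flagged as well above background on 4 or more of the 9 arrays and were tested with limma 3.58.1 in R 4.3.3 (lmFit, eBayes, group as the only term), with Benjamini-Hochberg adjustment over all tested probes. The code was tested on simulated data. Replicates are separate rats. The brightest probe represents a gene.

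Genes given sample by sample are the 4 of smallest p in each direction, the one of smallest p in each role group, and those whose probes differed in sign. Up to 4 companion genes of smallest p per list were to be named, and more are given here, chosen after their values were seen. The members and lists were chosen with earlier results of these data known. A pair of companion lists is not reported here. Alternatives were quantile and median scaling, normexp with an offset of 50, other filters, averaged probes, the authors' table, array weights, slide and replicate blocks, and leaving out each array. The authors' table without OV replicate 3 was added after seeing the data.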

Additional observations from a re-analysis of the deposited data

Results flagged for a closer look

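Of 28 group and gene or ratio combinations looked at, 1 held a sample far from the others. OV replicate 3 had a Psmd5 level of -2.19, while the nearest OV rat was at -0.53 on the same log2 scale. Chance alone marks about 1 in 20 groups in this way, but that rate is for ordinary samples, and OV replicate 3 stood apart before any comparison. The combinations looked at covered only part of the members. Psmd5 is the assembly chaperone with the highest difference of all members, 0.52, and that difference was 0.09 without this rat. The cause was not tested.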

How the results depend on the processing

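Of 212 values of the 11 genes given sample by sample under other settings, 203 kept their direction and stayed short of an adjusted p of 0.05, and 9 changed sign. Psma7 went from 0.14 to -0.14 in the authors' table, -0.0709 with array weights, -0.106 without OV replicate 3 (0.279 without OV replicate 1) and -0.113 in the authors' table without OV replicate 3. Psmc1 went from -0.06 to 0.0601 (quantile), 0.0482 (median scaling), 0.0890 (normexp), 0.00135 (authors' table) and 0.0146 (slide block). The count of all probes called was 0, but 9 without a filter, 69 in the authors' table (1 without OV replicate 3), 3492 with array weights, which gave OV replicate 3 a weight of 0.0489, and 0 to 1 when 1 array was left out. The members' median of 0.06 was 0.17 with median scaling and 0.14 with normexp, and 0.01 to 0.10 with 1 array left out. The count of members at an unadjusted p under 0.05 was 1, but 2 with quantile scaling, 2 with normexp, 0 with slide as a block, 4 with array weights, 2 in the authors' table without OV replicate 3, and 0 to 2 with 1 array left out. The lowest count, 0, came without OV+E2 replicate 1, 2, 3 or 5, and the highest, 2, without OV replicate 1, 3 or 5. Quantile scaling took the ratios of Psmb8 to Psmb5 (-0.34) and Psmb10 to Psmb7 (-0.72) to an adjusted p of 0.0476, and the authors' table took Psmb9 to Psmb6 (-0.33) to 0.0238. With a replicate block over the 4 shared numbers the count of members at an unadjusted p under 0.05 was 0 and their median 0.08. The numbers share no known origin: same-numbered deviations correlated at 0.17, -0.08, -0.01 and 0.11, and 2 of 4 OV samples correlated best with their own number. Causes were not tested.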
